A study of Mus musculus with 4 samples.

Results

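The p53 target genes examined here are those that act outside the best-known death and arrest programme: regulators of mRNA turnover, ligands and signalling proteins, metabolic enzymes, mitotic proteins and nuclear regulators. They were taken from a list of 31 gene symbols, and the platform annotation paired 30 of them with a probe set of exactly 1 symbol, out of 19938 named genes. Gdf15 was not analysed here. All 30 genes passed the brightness filter on all 4 arrays, with every reading above 5.87 (log2), among 10698 genes that reached it on at least 1 array.

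The cells were mouse embryonic fibroblasts of C57BL/6 background that had been transformed with SV40 and lack BAX and BAK, the proteins that permeabilise the mitochondrial outer membrane in apoptosis. All groups shared these features. One line carried a retrovirus for GFP and the other a retrovirus for p63, a relative of p53 that stratified epithelia depend on, and each was mock-treated or given etoposide, an inhibitor of topoisomerase II, for 6 h. The treatment protocol gives the etoposide dose as 10 µg/mL, and other labels give the same number per microlitre. Whether the transduced cells were clones or pools, and which p63 isoform was expressed, was not stated in the labels. The design text names GFP for the last etoposide sample, whose own labels name p63, and the sample's labels were followed.

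p53 is a transcription factor that accumulates after DNA damage and binds a response element made of a pair of decamers. p63 recognises closely related elements. Large T antigen of SV40 binds p53, and in transformed fibroblasts p53 is commonly held in that complex. Beyond arrest and apoptosis, p53 targets dampen growth signals, adjust metabolism and alter mRNA decay.

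Each of the 4 conditions was measured on 1 array, so values are given without an error, differences within a line or a treatment have no test, and genes are called at a log2 difference of at least 1 in size, a 2-fold change. Signals are RMA values on the log2 scale, and the level of 1 gene is not compared with that of another, because probes differ in brightness. The Trp63 signal read 4.87 and 5.59 in GFP cells against 8.75 and 9.29 in p63 cells (mock, then etoposide), higher in the line labelled p63 under either treatment. The array of mock-treated p63 cells differed from the rest by at least 1 for 78 genes for which the other arrays lay within 0.5 of one another, against 1 to 22 genes for each of the other arrays. None of the 30 p53 targets was among those 78. Array medians over the genes kept ran from 7.48 to 7.69. Of 10 fibroblast markers 8 reached the filter, while Pdgfra and Thy1 were below it on all arrays, and 0 of 5 endothelial, 1 of 9 haematopoietic and 2 of 5 simple epithelial markers reached it on at least 1 array. RNA came from whole cultures, so fewer cells of a kind and less RNA per cell cannot be told apart.

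After etoposide the p53 targets stood higher in both lines as a group. Their list was chosen with earlier results of these data known, so the shares below describe it and are no independent support. In GFP cells 19 of 30 were higher by at least 1 and 0 were lower, where 3.52% of all genes kept were higher and 2.12% lower. In p63 cells 21 of 30 were higher and 0 lower, against 6.28% and 1.33% of all genes. The same 16 genes were higher in both lines (2.57% of all genes) and 0 were lower in both (0.608%). The 30 genes had a median difference of 1.30 (GFP cells) and 1.46 (p63 cells), and all genes kept had one of -0.08 and 0.10. These comparisons share no array, and the 19 genes in GFP cells do not rest on the mock-treated p63 array. An additive limma fit of line and treatment over the 4 arrays, added after the data were seen, called 26 of 30 higher after etoposide and 0 lower, against 8.33% and 3.63% of all genes (Benjamini-Hochberg adjusted p under 0.05). It left 1 residual degree of freedom and gave every gene the same standard error, 0.24, so its calls amount to a threshold on the mean difference and carry no spread between replicates.

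For 28 of the 30 genes both etoposide arrays read above both mock arrays, as for 23.8% of all genes kept. The exceptions were Pvt1, whose arrays overlapped, and Tigar, for which both etoposide arrays read below both mock arrays, as for 22.1% of all genes.

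**Figure D1:**
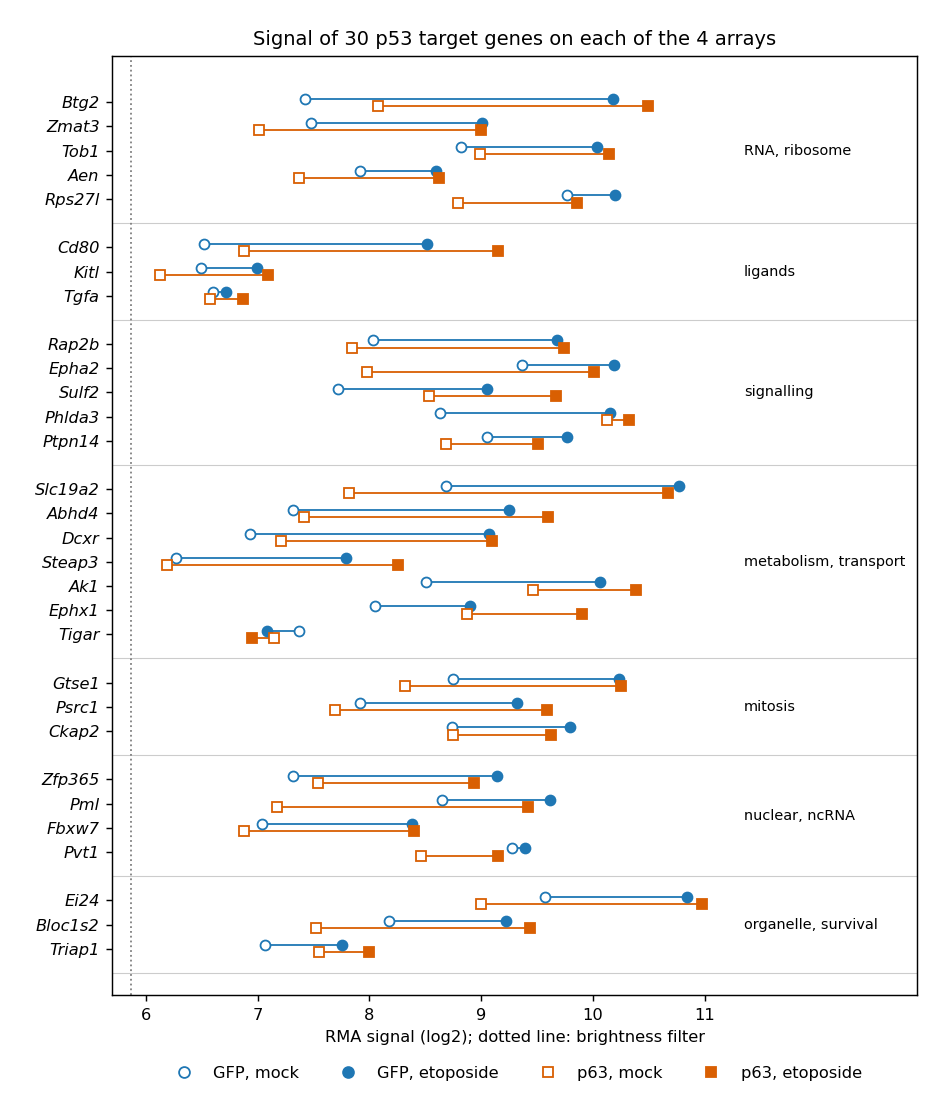
RMA signal (log2, horizontal axis) of the 30 genes on each array, grouped by role; open symbols are mock-treated and filled symbols etoposide-treated cells, circles GFP and squares p63 cells, and a line joins the arrays of a line. Filled symbols lie to the right of open ones in both lines for 29 genes, and to the left for Tigar.

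**Figure D2:**
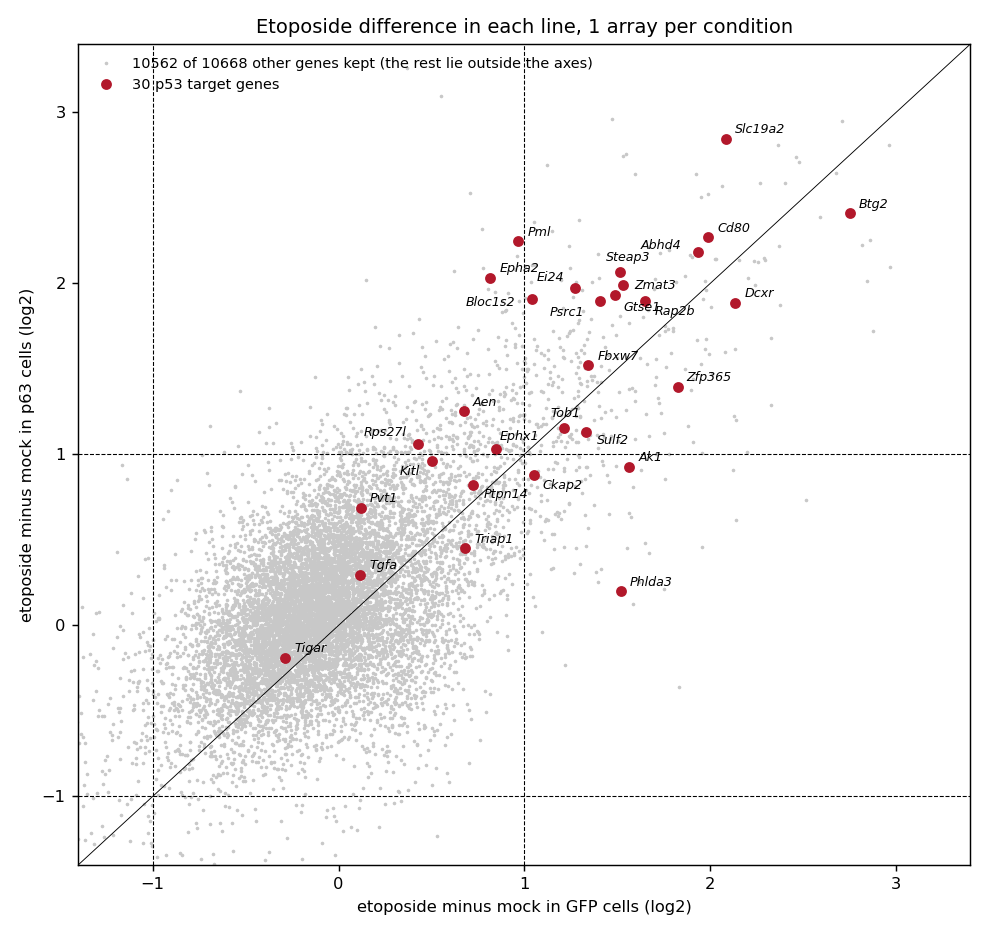
Etoposide minus mock (log2) in GFP cells (horizontal) against p63 cells (vertical), with the 30 p53 targets as large red points and other genes as grey points; dashed lines mark -1 and 1 and the solid line equal differences. The upper right field holds 16 of the targets, and Phlda3 (1.52 and 0.20) lies far below the line of equality while Pml (0.97 and 2.25) and Epha2 (0.82 and 2.03) lie above it.

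The promoters of these genes were searched for the p53 response element. RefSeq windows (GRCm38.p6) from 250 bases before to 50 bases after a transcription start were matched for 28 of the 30 genes, with 42 windows. An adjacent pair of p53 consensus decamers, with the inner CNNG of each in place and at most 2 mismatches over the 20 bases, was found for 5 of 28 genes (17.9%), against 0.392% of 27025 genes with a window. The element reads alike on both strands, so 1 search covers both. With at most 1 mismatch the counts were 2 of 28 (7.14%) and 0.0814%, with at most 3 they were 7 of 28 (25%) and 1.63%, and with none they were 0 of 28 and 0.0111%. The limit of 2 was chosen after these counts were seen. Decamers without mismatch at most 13 bases apart formed a pair in 0 of 28 genes, against 0.074% of all genes. Because the genes were listed as known p53 targets, a higher share with the element could be foreseen and is no result of these arrays. The sequence sets differ: the mean GC content of a gene's windows had a median of 61.4% over the targets, against 52.75% over all genes. There were 42 windows for 28 genes, against 32851 for 27025. Per window the shares were 11.9% and 0.326%, and the part of base composition was not tested. The 5 stretches are shown 5′ to 3′ on the strand of the gene, since they let a reader compare the letters with the element, and capitals mark the pair of decamers.
Rps27l: atggcGGGCTTGTTGAGACTTGTCCgggcg
Gtse1: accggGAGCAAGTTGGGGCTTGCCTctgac
Cd80: gctcaGAACAGGCCTGGACAAGTCAcctcc
Ckap2: tctgaAGACATGTCCTGACTTGTCAagcct
Zfp365: tagcaAGACTAGGCTGGGCAAGACTggcac

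Rps27l and Gtse1 held 1 mismatch each and the other 3 genes 2 each. The printed stretches lie at chr9:66946291-66946320 on the plus strand for Rps27l, chr15:85859940-85859969 (plus) for Gtse1 and chr16:38458817-38458846 (plus) for Cd80. That of Ckap2 lies at chr8:22185998-22186027 and that of Zfp365 at chr10:67912701-67912730, both on the minus strand. Relative to the RefSeq start the pair of decamers began 117 bases upstream in Rps27l, 111 in Cd80, 203 in Ckap2 and 63 in Zfp365, and in Gtse1 it ran from 1 base upstream into the transcribed part. Of these genes Cd80, Gtse1 and Zfp365 were higher in both lines after etoposide, Ckap2 only in GFP cells by the threshold and Rps27l only in p63 cells, and the differences between lines were not tested. A single decamer without mismatch was found for 8 of 28 genes (28.6%), against 9.55% of all genes. A match is a description of these letters and shows no binding.

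Genes that act on RNA and the ribosome were higher by at least 1 in p63 cells for 5 of 5 and in GFP cells for 3 of 5. Btg2, an antiproliferative adaptor that recruits the CCR4-NOT deadenylase, read 7.42 and 10.18 in GFP cells against 8.08 and 10.49 in p63 cells (mock, then etoposide), which is 6.74-fold and 5.31-fold higher after etoposide. It ranked 7 of 10698 genes by difference in GFP cells and 22 in p63 cells. Tob1, of the same protein family, read 8.82 and 10.04 in GFP cells against 8.99 and 10.14 in p63 cells. Its differences of 1.22 and 1.15 were thus smaller than those of Btg2, and in p63 cells it fell short of the threshold, at 0.96, when arrays were centred on their medians.

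Zmat3, a zinc finger protein that binds RNA and acts in splicing, read 7.48 and 9.01 in GFP cells against 7.01 and 9.0 in p63 cells. Its p63 minus GFP difference was -0.47 in mock-treated cells and -0.01 after etoposide. Neither reached the threshold, and all genes kept had a median of -0.14 between the mock arrays. Aen, a nuclease induced in apoptosis, read 7.92 and 8.59 in GFP cells against 7.37 and 8.63 in p63 cells, a difference of 0.67 and 1.25. Rps27l, a paralogue of the ribosomal protein Rps27, read 9.77 and 10.20 in GFP cells against 8.80 and 9.86 in p63 cells. Both Aen and Rps27l were called in p63 cells alone, where their mock readings were the lowest of the 4 arrays. Centring the arrays took Rps27l below the threshold in p63 cells, from 1.06 to 0.87. Probes of Rps27l can share sequence with those of its paralogue, and this was not tested.

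Of 3 ligands measured, 1 was higher in both lines. Cd80, the co-stimulatory ligand of CD28 and CTLA-4 known from antigen-presenting cells, read 6.52 and 8.51 in GFP cells against 6.88 and 9.15 in p63 cells, which made etoposide readings 3.97-fold and 4.82-fold higher. A second probe set of Cd80 gave 1.77 and 2.24. Over 9 haematopoietic markers the linear signal summed to 230.0 and 303.1 in GFP cells against 200.9 and 284.9 in p63 cells, with Ptprc below the filter on all arrays. Cd68 alone reached the filter, on all arrays but that of mock-treated p63 cells. It read 6.05 and 6.78 (log2) in GFP cells against 5.20 and 6.87 in p63 cells, differences of 0.72 and 1.68. The part of these markers in the Cd80 values was not tested.

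Kitl, the ligand of the receptor Kit, read 6.49 and 6.99 in GFP cells against 6.13 and 7.09 in p63 cells. Tgfa, a ligand of the EGF receptor, read 6.60 and 6.71 in GFP cells against 6.57 and 6.87 in p63 cells. All their etoposide readings lay above their mock readings, and neither gene reached the threshold. Kitl came to 0.96 in p63 cells, just short of it, and Tgfa had differences of 0.12 and 0.30.

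Among 5 signalling genes, 2 were higher in both lines. Rap2b, a small GTPase of the Ras family, read 8.03 and 9.68 in GFP cells against 7.84 and 9.74 in p63 cells, a difference of 1.65 and 1.90. Sulf2, an extracellular sulfatase that trims heparan sulfate, read 7.72 and 9.05 in GFP cells against 8.54 and 9.67 in p63 cells. Its p63 readings were higher than its GFP readings under the same treatment, by 0.82 and 0.62, and its etoposide difference in p63 cells went from 1.13 to 0.94 with arrays centred. Ptpn14, a phosphatase that restrains YAP, read 9.05 and 9.77 in GFP cells against 8.69 and 9.51 in p63 cells, and was called in neither line (0.72 and 0.82).

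The remaining signalling genes differed between the lines before etoposide. Phlda3, a PH-domain protein that inhibits AKT, read 8.63 in GFP cells under mock treatment and 10.15 after etoposide, while p63 cells read 10.12 and 10.32. The mock-treated GFP array thus stood alone, and Phlda3 was the single target for which an array lay at least 1 from 3 others that were within 0.5 of one another. Epha2, a receptor tyrosine kinase, read 9.37 and 10.18 in GFP cells against 7.97 and 10.01 in p63 cells. In this gene the mock-treated p63 array was the low one, and the etoposide arrays lay 0.18 apart.

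Metabolic enzymes and transporters were higher in both lines for 4 of 7. Slc19a2, a thiamine transporter, read 8.69 and 10.77 in GFP cells against 7.82 and 10.67 in p63 cells. Its 7.19-fold difference in p63 cells ranked 5 of 10698 genes, and its 4.24-fold difference in GFP cells ranked 35. Dcxr, which reduces xylulose and dicarbonyls, read 6.94 and 9.07 in GFP cells against 7.21 and 9.09 in p63 cells. Abhd4, a lipase of N-acyl phospholipids, read 7.32 and 9.25 in GFP cells against 7.41 and 9.59 in p63 cells. In both genes the lines lay at most 0.34 apart under either treatment.

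Steap3, a ferrireductase of endosomes, read 6.27 and 7.79 in GFP cells against 6.19 and 8.26 in p63 cells, the mock readings being near the filter. Ak1, the cytosolic adenylate kinase, read 8.50 and 10.07 in GFP cells against 9.46 and 10.39 in p63 cells. It was called in GFP cells (1.56) and just missed the threshold in p63 cells (0.93), where the mock reading was already 0.96 higher. Ephx1, the microsomal epoxide hydrolase, read 8.05 and 8.90 in GFP cells against 8.87 and 9.90 in p63 cells, and was called after etoposide in p63 cells alone (0.85 and 1.03). That call was lost with arrays centred (0.84) and after cyclic loess (0.93).

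Ephx1 was the single target called between the lines after etoposide, at 1.01, a value on the threshold that became 0.92 with arrays centred and 0.98 after cyclic loess. Tigar, a phosphatase that lowers fructose-2,6-bisphosphate and so restrains glycolysis, read 7.37 and 7.08 in GFP cells against 7.14 and 6.95 in p63 cells. It was the single target with negative etoposide differences, -0.29 and -0.19. It ranked 7603 and 8137 of 10698 genes.

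The 3 targets with roles in mitosis were higher after etoposide while G2 and M phase genes were lower. Gtse1, a microtubule-associated protein of G2 that also binds p53, read 8.75 and 10.23 in GFP cells against 8.32 and 10.25 in p63 cells. Psrc1, a spindle protein, read 7.91 and 9.32 in GFP cells against 7.69 and 9.59 in p63 cells. Ckap2, which binds microtubules at spindle poles, read 8.74 and 9.79 in GFP cells against 8.75 and 9.63 in p63 cells. All etoposide readings of the 3 genes lay above all their mock readings, and Ckap2 was called in GFP cells (1.05) and not in p63 cells (0.88). Of 27 G2 and M phase genes, 8 were lower in both lines and 0 higher in either, with medians of -0.94 and -0.73. They included Plk1, a mitotic kinase, at -2.39 and -2.38, Cenpf, a kinetochore protein, at -1.91 and -2.44, the spindle-associated protein Nusap1, at -2.17 and -1.83, and the cytokinesis regulator Prc1, at -1.91 and -1.72. Phase distributions of the cells are not used here.

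Of 4 nuclear regulators and non-coding RNAs, 2 were higher in both lines. Zfp365, a zinc finger protein linked to genome stability, read 7.32 and 9.14 in GFP cells against 7.54 and 8.94 in p63 cells. Fbxw7, the substrate receptor of an SCF ubiquitin ligase, read 7.03 and 8.38 in GFP cells against 6.88 and 8.40 in p63 cells. Its other probe set read between 3.74 and 4.49 on all arrays, below the filter, with differences of 0.36 and 0.39, and the median of the probe sets gave 0.85 and 0.96.

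Pml, the scaffold of PML nuclear bodies, read 8.65 and 9.62 in GFP cells against 7.17 and 9.42 in p63 cells. As for Epha2, the mock-treated p63 array was the low one. Its difference in GFP cells, 0.97, lay just under the threshold and passed it with arrays centred (1.06) and after cyclic loess (1.10). Pvt1, a long non-coding RNA next to Myc, read 9.27 and 9.39 in GFP cells against 8.46 and 9.15 in p63 cells, so that its p63 etoposide reading lay below its GFP mock reading.

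Organelle and survival proteins were higher in both lines for 2 of 3. Ei24, an endoplasmic reticulum protein needed for autophagy, read 9.57 and 10.84 in GFP cells against 9.0 and 10.97 in p63 cells. Bloc1s2, a subunit of complexes that position lysosomes, read 8.18 and 9.22 in GFP cells against 7.53 and 9.43 in p63 cells, and its other probe set gave 1.02 and 1.90, close to 1.04 and 1.91. Triap1, which takes part in lipid transfer within mitochondria and counters apoptosis, read 7.07 and 7.75 in GFP cells against 7.55 and 8.0 in p63 cells, and was called in neither line.

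The better-known p53 targets for death, arrest, feedback and repair, as far as measured, gave counts close to these. Cdkn1a and Bax had no probe set of exactly 1 symbol, and Bbc3 and Casp1 stayed below the filter, so none of them was compared. Of 28 kept from a list of 32, 15 passed the threshold upwards in both lines and 0 downwards in either, with medians of 1.20 (GFP) and 1.48 (p63), beside 16 of 30 and medians of 1.30 and 1.46 for the targets described above. The members with the largest mean difference were Mdm2, the ubiquitin ligase of p53, at 2.40 and 2.59, Fas, a death receptor, at 2.59 and 2.39, the TNF-family receptor Eda2r, at 2.06 and 2.57, and Trp53inp1, which promotes autophagy, at 2.29 and 2.14. Btg2 and Slc19a2 lay in the same range. In each line 25 of the 28 better-known targets had a difference above 0, while Ddb2 (-0.22 and -0.22) and Xpc (-0.11 and -0.25) lay below it in both.

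**Figure D3:**
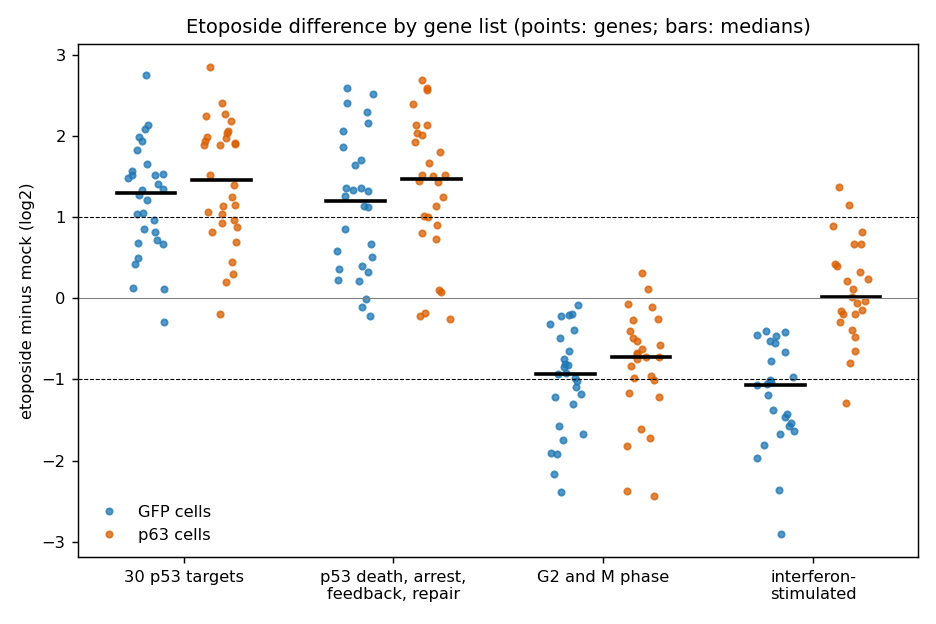
Etoposide minus mock (log2, vertical axis) for each gene of 4 lists in GFP cells (blue) and p63 cells (orange); bars are medians and dashed lines mark -1 and 1. Both p53 lists centre above 1 in both lines, the G2 and M phase genes lie mostly below 0, and the interferon-stimulated genes have medians of -1.07 (GFP) and 0.01 (p63).

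The p63 line was also compared with the GFP line under each treatment. An effect of p63 cannot be told apart here from any other difference between these lines, and with p63 means in the p63 line. At baseline, 1 of 30 targets was higher in p63 cells and 2 were lower, where 2.42% of all genes were higher and 3.76% lower. Phlda3 was 2.81-fold higher with p63 (1.49), Epha2 differed by -1.39 and Pml by -1.48. Below the threshold the largest were Rps27l (-0.97), Ak1 (0.96), Slc19a2 (-0.87), Sulf2 and Ephx1 (both 0.82) and Pvt1 (-0.81). With arrays centred, Ak1, Ephx1 and Sulf2 passed it and 6 targets were called, with no share of all genes computed at that setting. After etoposide 1 target was higher, Ephx1, and 0 were lower, where 1.38% of all genes were higher and 0.514% lower. None of the 30 was called with p63 under both treatments, where 0.925% of all genes were higher and 0.486% lower in both. The additive fit called Ephx1 and Phlda3 higher with p63 and Epha2 and Pml lower, against 3.01% and 2.13% of all genes, with the same limit. It averages both treatments, whereas Phlda3, Epha2 and Pml differed mostly in mock-treated cells. After etoposide they stood at 0.17, -0.18 and -0.20, so their calls do not describe a p63 difference under both treatments.

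The lines lay closer together after etoposide. For these targets the SD of the p63 differences over genes was 0.68 under mock treatment and 0.30 after etoposide, and for all genes kept it was 0.56 and 0.36. The difference was smaller in size after etoposide for 23 of 30 targets (76.7%) and for 68.1% of all genes, so the narrowing was not confined to them. Both values for mock-treated cells use the array that stood apart.

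**Figure D4:**
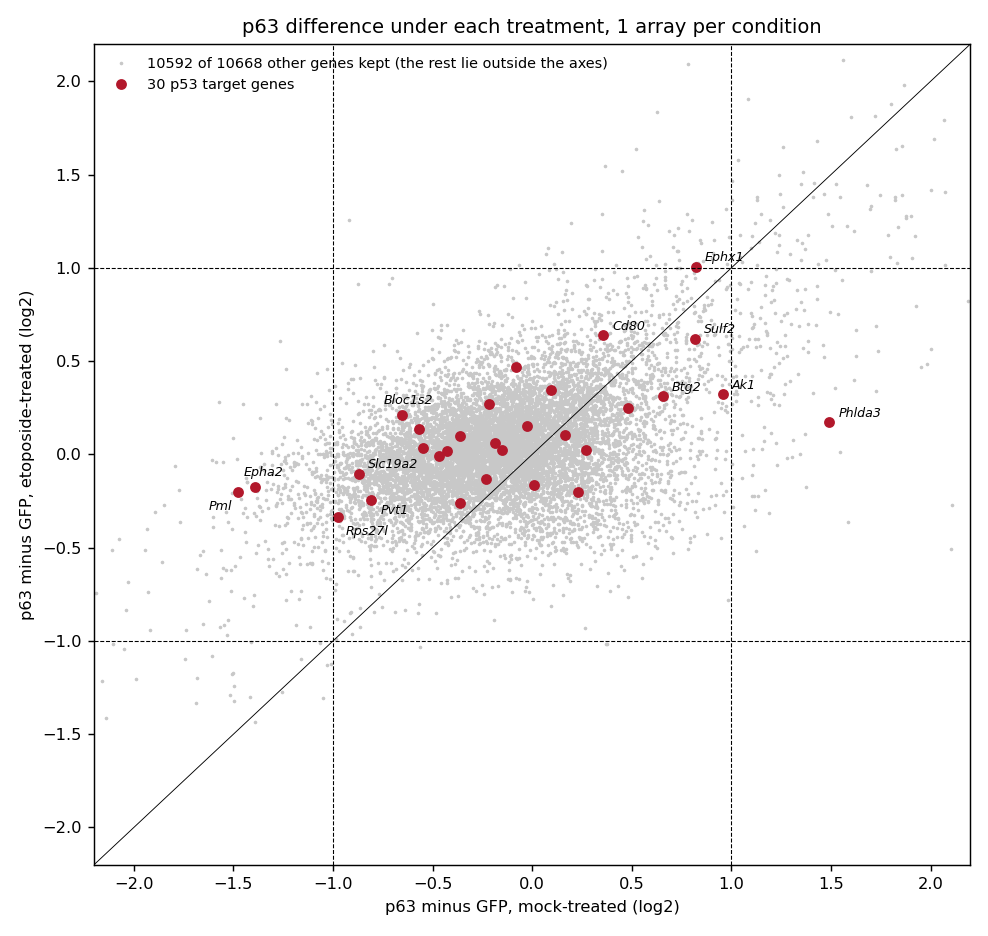
p63 minus GFP (log2) in mock-treated cells (horizontal) against etoposide-treated cells (vertical), with the 30 targets as large red points and other genes in grey; dashed lines mark -1 and 1 and the solid line equality. The targets spread from -1.48 to 1.49 along the horizontal axis and from -0.34 to 1.01 along the vertical one.

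Other lists also differed between the mock arrays, beside Pml and Epha2. Pml is itself induced by interferon, and of 25 interferon-stimulated genes 16 were lower with p63 under both treatments, with medians of -2.76 and -1.33. Usp18 measured -4.36 and -3.34, Rtp4 -4.97 and -2.71, Gbp3 -4.53 and -2.63, and Trim30a -4.79 and -2.23. All of these read below the filter in mock-treated p63 cells, so their sizes and order are not firm. With dim readings raised to the filter Usp18 came to -3.80 and -2.75, Rtp4 to -4.14 and -2.56, Gbp3 to -3.59 and -2.63, and Trim30a to -2.59 and -0.92, and 10 of 25 genes were lower under both treatments. After etoposide Pml differed by -0.20, against that median of -1.33. Whether the list and Pml share a cause was not tested.

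Immediate early genes, which follow growth factor and stress signals, were higher after etoposide in both lines for 4 of 16, with p63 medians of -0.32 (mock) and 0.27 (etoposide). The 4 were Dusp6, a phosphatase of ERK, at 1.47 and 2.96, Fos at 1.60 and 2.64, Atf3 at 1.98 and 1.96, and Junb at 1.20 and 1.14. Fos read below the filter on both mock arrays, and raised to it gave 0.85 and 1.75, which left 3 genes. Dusp6 differed by -1.03 between the mock arrays, as Epha2 did by -1.39, and by 0.46 after etoposide.

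Known epithelial targets of p63 were higher with the p63 virus under both treatments for 13 of 19, or for 10 with dim readings raised to the filter. Serpinb5, the serpin maspin, measured 5.37 and 4.60, the basal keratins Krt14 and Krt5 4.94 and 4.72 and 4.68 and 4.48, and Dsp, desmoplakin, 4.32 and 3.54. All of these read below the filter in mock-treated GFP cells. Raised to it, Serpinb5 came to 2.82 and 3.39, Krt14 to 4.28 and 4.40, Krt5 to 4.02 and 3.85, and Dsp to 4.15 and 3.54. Over 5 simple epithelial markers the linear signal summed to 251.1 and 361.7 in GFP cells against 1362.2 and 1649.7 in p63 cells. Krt19 made up most of the p63 sums, at 10.15 and 10.54 (log2), and differed by 3.49 and 3.05 (p63 minus GFP). Krt8 differed by 1.01 and -0.28, and Krt18, Epcam and Cdh1 were below the filter on all arrays. The part of this marker signal in the p63 differences of the targets was not tested. Perp, a desmosomal protein on both this list and that of known p53 targets, read 6.03 and 8.55 in GFP cells against 10.27 and 11 in p63 cells. Phlda3 likewise read lowest in mock-treated GFP cells and highest in etoposide-treated p63 cells. Its etoposide-treated GFP reading (10.15), however, lay level with that of mock-treated p63 cells (10.12). After etoposide the lines differed by 2.45 for Perp and by 0.17 for Phlda3, and a shared cause was not tested.

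The difference between the etoposide differences, p63 minus GFP cells, was at least 1 in size for 3 of 30 targets, of which 2 were higher (2.84% of all genes) and 1 was lower (1.09%). Pml stood at 1.28, Epha2 at 1.22 and Phlda3 at -1.32. The value uses all 4 arrays, so it contains the mock differences given above. With arrays centred, Phlda3 alone was called, since the median of all genes moved from 0.20 to -0.10. The share of all genes called was not computed for centred arrays. Across the other 27 targets it ran from -0.64 for Ak1 to 0.87 for Bloc1s2, and the median over the 30 was 0.25, near that of all genes.

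**Figure D5:**
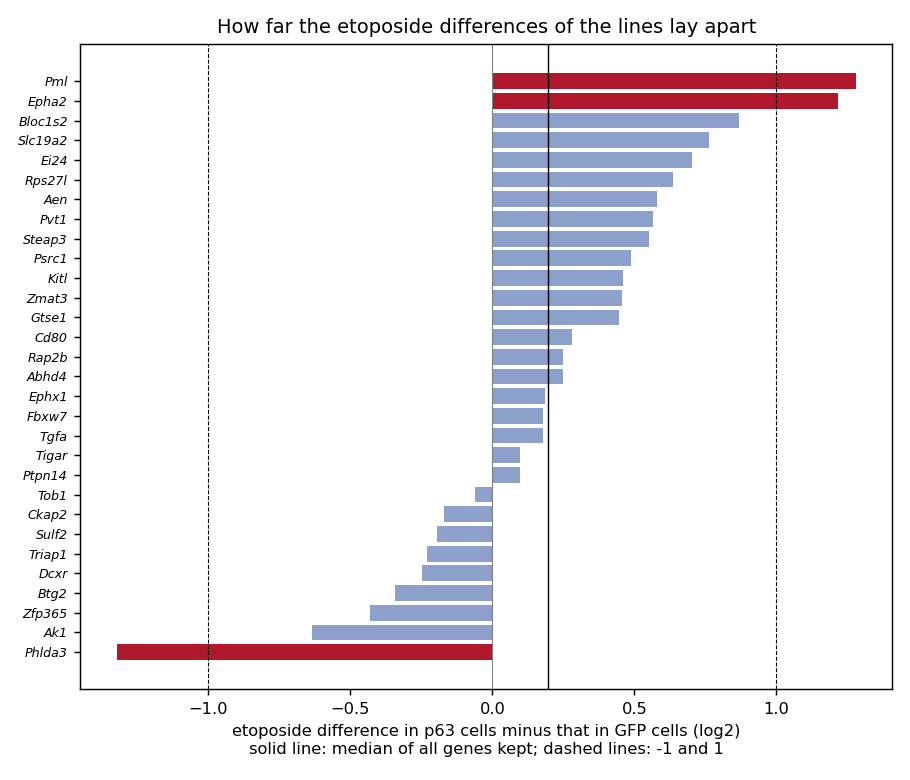
Etoposide difference of the p63 line less that of the GFP line (log2, horizontal axis) for each of the 30 genes; bars past the dashed lines at -1 and 1 are red and the solid line is the median of all genes kept, 0.20. Pml and Epha2 lie at the top, Phlda3 at the bottom, and 27 bars end between the dashed lines.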

How the data were processed

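Total RNA from 4 samples, 1 per group, was amplified with a NuGEN kit and measured on Affymetrix Mouse Gene ST arrays, per the labels' protocols. Per the submitters' processing notes, the authors used Affymetrix Expression Console and RMA to make the deposited log2 signals, and no version is stated there. RMA equalises probe intensity distributions over arrays, so a shift shared by most genes is largely removed. The values ran from 1.27 to 14.4, from which the log base was inferred.

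Of 35512 probe sets, a platform annotation of 2016 named 21789 with 1 symbol and 1621 with several, and 12102 were unlisted. Symbols were updated by Entrez identifier (21698 matched). No genome build is stated for the array annotation, so coordinates are printed for RefSeq promoter windows only. The probe set with the highest mean represented a gene. Genes were kept if any array reached 5.87, the 50th percentile over these probe sets. With 1 array per group the differences within a line or treatment leave no residual degrees of freedom and were not tested. Differences of at least 1 were called, and the share of all genes kept that passed is given where each comparison is introduced. Named genes were all members found and, from each other list, at most 4 genes called in both comparisons of a pair. Perp, single cell type markers and better-known p53 targets that were unmeasured, dim or lower were named beyond it, after their values were seen. The members and lists were chosen with earlier results of these data known. An additive limma fit (line plus treatment) was added after the data were seen. The calling step and that fit were tested on simulated data. Alternatives were other filters, dim readings raised to the filter, a 1.5-fold threshold, the median of probe sets, centred arrays and cyclic loess. Python 3.11.15, pandas 2.3.3 and limma 3.58.1 in R 4.3.3 were used. The number of arrays limits the precision.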

Additional observations from a re-analysis of the deposited data

How the results depend on the processing

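The count of targets higher in both lines after etoposide was 16 as reported and lay between 15 and 23 under the alternatives, the additive fit aside. For these filters, thresholds and normalisations the share of all genes called was not computed. Their counts here and below thus have no background beside them and show only how the calls moved. Outside the stricter filter and the 1.5-fold threshold, 13 of the 16 genes were so called under every setting, the exceptions being Fbxw7 (median of probe sets), Sulf2 and Tob1 (centred arrays). With the mock-treated p63 array left out, an alternative chosen after seeing the data, the counts that remain are 19 higher after etoposide in GFP cells and 1 called with p63 after etoposide. Results of the p63 comparisons moved more. At a 1.5-fold threshold 11 targets were called in mock-treated cells, 3 in etoposide-treated cells, 2 under both and 8 for the difference of the etoposide differences. With arrays centred these counts were 6, 0, 0 and 1, and the p63 medians were 0.0421 (mock) and -0.0024 (etoposide), against -0.17 and 0.08 as reported. After cyclic loess 6 and 0 targets were called with p63 in mock-treated and etoposide-treated cells, and the mock median was 0.0109. With probe sets of a gene summarised by their median, which left 29 targets and dropped Pvt1, the mock median was -0.0831. Centring moved the median of all genes in mock-treated cells from -0.14 to 0.07. No called value changed sign under any alternative run. No filter and raised dim readings left all values of the 30 genes as they were. The filter at the 75th percentile left 27 of them. In the additive limma fit, where the line pairs the treatments, 26 targets were called for etoposide and 4 for p63, with one standard error for all genes. That fit averages the p63 difference over both treatments, also where it lay mostly in mock-treated cells. With no replicate, none could be left out of a group.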
